A study of Spermophilus dauricus with 30 samples.

Results

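Gene expression in the extensor digitorum longus (EDL), a fast-twitch muscle of the lower hind leg that extends the toes, was compared between Daurian ground squirrels (*Spermophilus dauricus*) after hibernation (POST) and in summer activity (SA). The comparison used 3 POST and 3 SA EDL libraries of a series of 30, and every identifier with enough counts was a member, which was the case for 16299 of the 27394 identifiers in the deposited table. The 3 further states, before hibernation (PRE), in hibernation (HIB) and in arousal between torpor bouts (IBA), with 3 EDL libraries each, were used to place each POST against SA difference in the year. The remaining 15 libraries come from the soleus (SOL), a slow-twitch postural muscle. All 30 libraries carry the same labels for genotype (WT), for tissue (skeletal muscle) and for treatment (hibernation). The labels give no age, sex, date or animal for a library, so the p-values below measure the spread between these samples, which may be technical.

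Daurian ground squirrels spend the winter in bouts of torpor, with low body temperature and hardly any movement, broken by short arousals in which they rewarm. In most mammals long disuse wastes skeletal muscle and shifts its fibres, and hibernators are studied because their muscles lose comparatively little mass and strength over the season. POST animals have ended the torpor season, and SA animals are months away from it. A difference between them can therefore be one that arose on the way into winter and was still present, or one seen in POST animals alone. The states come from different groups of samples, and the labels do not say whether any animal was sampled in more than 1 state.

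Between 33561254 and 41972200 counts were recorded per EDL library, on 17946 to 19488 identifiers. An identifier is a plain number or carries a text prefix, and the deposited table gives no gene name beside it. Fibre type, cell type and pathway genes could therefore not be looked up, the label EDL could not be checked against markers, and only 4 identifiers are described by number. Fewer cells of a type and less RNA per cell cannot be told apart in such bulk samples. On the first principal component of log2 CPM (each count scaled by library size, as explained with the processing), with 17.3% of the variance of the 15 EDL libraries, the POST libraries lay at 15.7, -7.17 and 33.5 and the SA libraries at -53.2, -42.6 and -39.3. The groups did not overlap on it. The 50 most abundant identifiers held 39.3%, 39.1% and 28.2% of the counts in POST replicates 1, 2 and 3, against 32.6%, 38.5% and 30.2% in SA replicates 1, 2 and 3. POST replicate 3 thus stood apart from the other 2 POST libraries. The difference of the means, 1.78 percentage points, was within the spread (two-sided exact permutation p = 0.8, where 0.1 is the smallest p that 3 against 3 can give).

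After hibernation the EDL differed from the summer EDL in 1410 of the 16299 identifiers tested, 8.65% of them, at an adjusted p under 0.05 (quasi-likelihood test of edgeR). The 1410 divide into 692 that were higher in POST (4.25% of those tested) and 718 that were lower (4.41%). Most differences were moderate. The higher identifiers had a median log2 fold change of 0.85, with quartiles of 0.66 and 1.41, and the lower ones a median of -0.99, with quartiles of -1.26 and -0.80. Called differences of more than 2-fold numbered 270 upwards and 346 downwards. Among all 16299 identifiers tested, called or not, 2121 had a fitted difference of more than 2-fold. The median of all tested identifiers was 0.02, which the TMM scaling sets near 0 and which therefore says nothing about a shift of the whole.

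In 1363 of the 1410 identifiers all POST values lay on 1 side of all SA values, and 28.9% of all tested identifiers met that condition. The same contrast chose the 1410, so nothing is read from their count. For 7879 identifiers, 48.3% of those tested, the 95% interval of the log2 fold change lay within -1 and 1, which bounds their difference between POST and SA to less than 2-fold.

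**Figure D1:**
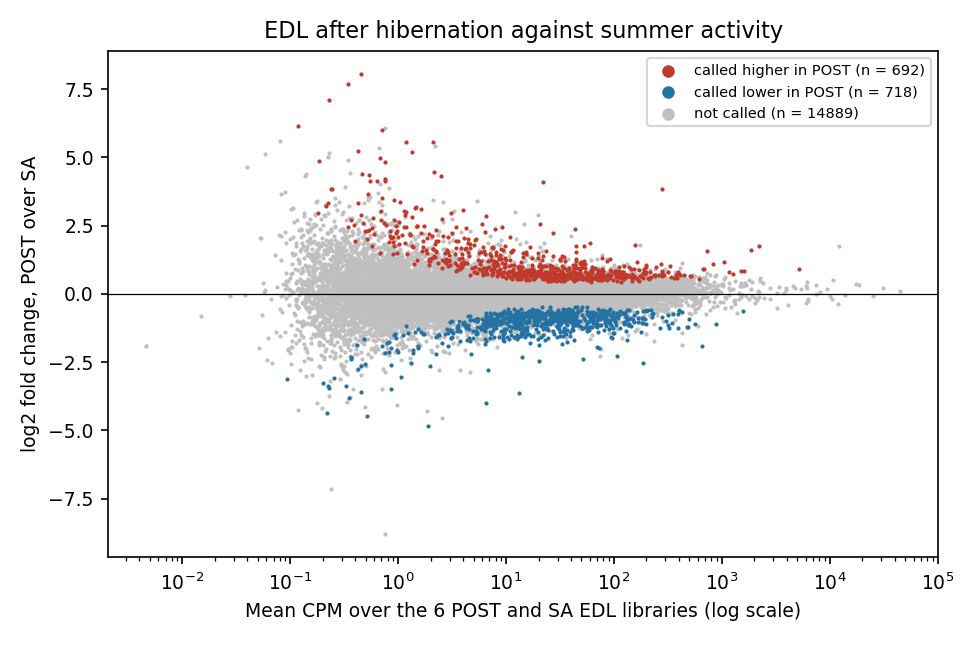
Each point is 1 of the 16299 identifiers tested, placed by its mean CPM over the 6 POST and SA EDL libraries (log scale) and its log2 fold change, POST over SA. The 692 identifiers called higher and the 718 called lower lie closer to 0 at high levels than at low levels.

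Calls depended on how abundantly an identifier was counted. With the identifiers ranked by mean CPM and cut into 4 groups of equal size, 145 of 4075 were called in the lowest group (3.56%), 323 of 4075 in the second (7.93%), 472 of 4074 in the next (11.6%) and 470 of 4075 in the highest (11.5%). The median size of a called difference ran the other way, at 2.44, 1.14, 0.82 and 0.79 on the log2 scale from the lowest to the highest group. The median standard error was 0.64 in the lowest group and 0.19 in the highest. Small differences of rarely counted identifiers were thus not detectable at this depth. Among the 50 most abundant identifiers, at 1756 CPM and more on average, 3 were higher in POST, 0 were lower and 47 did not pass.

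The count of calls changed widely when single libraries were left out. Each such fit also has fewer samples, and the part of that in a fall was not tested. Leaving out POST replicate 1, 2 or 3 gave 861, 663 or 561 calls. Leaving out SA replicate 1, 2 or 3 gave 411, 1423 or 239. Of the 1410 identifiers, 189 (13.4%) were called in each of these 6 fits, 76 of them higher and 113 lower in POST. With the spread taken from the 6 compared libraries alone 283 identifiers were called, 99 higher and 184 lower, so the higher share was 35.0% instead of 49.1%.

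Which of these differences were already present before or during hibernation was asked first by calls. Each earlier state was compared with the same SA libraries in the same fit, so a low or high SA library moves all of these comparisons together. The HIB against SA comparison called 780 identifiers (4.79%), with 418 higher (2.56%) and 362 lower (2.22%) in HIB. IBA against SA called 18 (0.11%), with 15 higher (0.092%) and 3 lower (0.0184%) in IBA, and PRE against SA 0 (0%). For PRE against SA, edgeR gave 2366 unadjusted p-values under 0.05, and DESeq2 made 539 calls. Of the 692 identifiers higher in POST, 214 were also called higher in HIB and 13 in IBA, 12 of these in both, which makes 215 (31.1%) with a call in an earlier state. Of the 718 lower in POST, 134 were also called lower in HIB and 3 in IBA, all 3 in both, which makes 134 (18.7%). In total 349 of the 1410 differences (24.8%) were called in the same direction before the POST state, and no identifier was called in the opposite direction in PRE, HIB or IBA against SA.

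The 349 identifiers had similar medians in hibernation and after it. Among the 215 higher ones the median log2 fold change over SA was 0.65 (PRE), 1.23 (HIB), 0.89 (IBA) and 1.22 (POST). Among the 134 lower ones it was -0.53 (PRE), -1.07 (HIB), -0.68 (IBA) and -1.08 (POST). The HIB and the POST medians rest in part on the calls that chose these identifiers. The IBA medians lay nearer to SA than both. As only 16 of the identifiers were called in IBA, that choice hardly raised the IBA medians, and nothing is read from this order.

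The other 1061 differences, 477 higher and 584 lower, were called in no earlier state. Their medians in the earlier states were still away from 0, at 0.41 (PRE), 0.45 (HIB) and 0.35 (IBA) for the higher ones, whose POST median was 0.76, and at -0.55, -0.44 and -0.39 for the lower ones, whose POST median was -0.96. The same medians over all 16299 identifiers lay between 0.00 and 0.02. All 4 comparisons share the SA libraries, and the part of these libraries in the common offset was not tested.

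At an unadjusted p under 0.05, 366 of the 692 higher identifiers were also higher in PRE than SA (7.33% of all tested were), 484 in HIB (11.9%) and 359 in IBA (7.15%). Of the 718 lower ones 416 were also lower in PRE (7.18% of all tested), 395 in HIB (11.6%) and 303 in IBA (6.06%). PRE, for which no call passed the adjusted threshold, thus had about as many of these as IBA among the higher identifiers. Among the lower ones PRE had more than HIB and IBA. The shared SA libraries raise all of these counts, so they are given as values only.

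**Figure D2:**
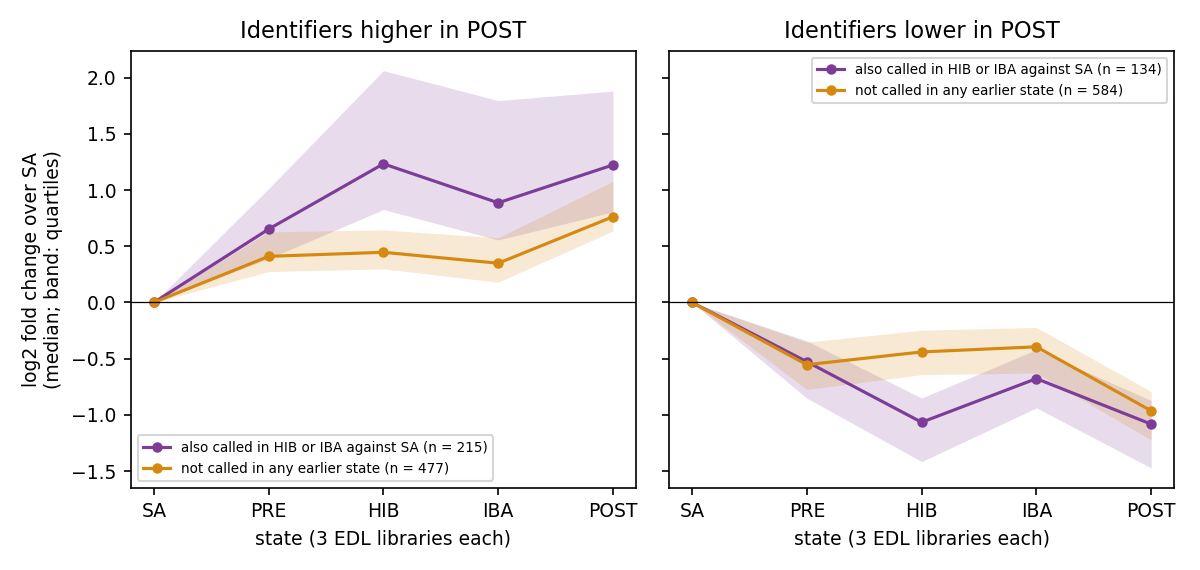
Median log2 fold change over SA in each state for the identifiers called higher (left) and lower (right) in POST, with bands for the quartiles, split by whether the identifier was also called in HIB or IBA against SA. The identifiers with an earlier call have similar medians in HIB and POST (1.23 against 1.22 for the higher ones), while the others stand about midway in PRE, HIB and IBA. The calls in HIB or IBA made this split, so nothing is read from the contrast between the lines.

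Differences seen only after hibernation were asked for by comparing POST with each earlier state itself. POST against HIB called 35 identifiers (0.215%), 16 higher (0.0982%) and 19 lower (0.117%) in POST. POST against PRE called 11 (0.0675%), 7 higher (0.0429%) and 4 lower (0.0245%). Of the 1410 differences from SA, 6 higher and 4 lower ones were also called in the same direction in POST against PRE, and 0 higher and 14 lower ones in POST against HIB. POST against IBA called 0 identifiers in edgeR (0%), which gave 2548 unadjusted p-values under 0.05, and DESeq2 made 516 calls. An identifier was placed as present only after hibernation if POST differed in the same direction from SA, PRE, HIB and IBA and no earlier state was called against SA. By edgeR 0 identifiers met this, since POST against IBA called none. At an unadjusted p under 0.05 for each of the 3 earlier states, and with none of them differing from SA in that direction at that level, 46 of the 692 higher and 61 of the 718 lower identifiers met it. Over all 16299 tested identifiers 120 met it upwards and 126 downwards, and as POST against SA chose the called ones, nothing is read from their counts. By DESeq2 17 identifiers met it, 9 higher and 8 lower, while 1050 of its 2408 calls had a call in an earlier state. The remaining 1061 edgeR calls were therefore placed in neither class.

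These counts also moved with single libraries. The 349 became 67 or 38 when SA replicate 1 or 3 was left out, 106, 156 or 107 when HIB replicate 1, 2 or 3 was, and 161 when POST replicate 3 was. Without POST replicate 3 the count seen only after hibernation became 3, that of POST against IBA 3 and that of POST against HIB 124. HIB against SA called 144, 416 or 89 identifiers when SA replicate 1, 2 or 3 was left out, and 163, 256 or 197 when HIB replicate 1, 2 or 3 was. PRE against SA called 58 identifiers without SA replicate 2, and 1 without SA replicate 1, POST replicate 1 or POST replicate 3. IBA against SA called 30 without SA replicate 2 or POST replicate 3, 0 without SA replicate 3 or any of the IBA libraries, 1 without SA replicate 1, and 3 to 11 without POST replicate 1, PRE replicate 1 or 3, or any of the HIB libraries. POST against HIB called 62 without SA replicate 2, and 1 to 16 without any of the others apart from POST replicate 3. POST against PRE called 1 to 7 without POST replicate 1 or 3, SA replicate 1 or 3, any of the PRE or HIB libraries, or IBA replicate 1.

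Since calls left most differences unplaced, the levels were also read without a threshold. Each earlier state was asked whether its mean log2 CPM lay nearer to the POST mean or to the SA mean, a reading that uses POST and SA alike and was chosen after the calls had been seen. For the 692 higher identifiers the HIB mean lay nearer POST for 506 (73.1%), the PRE mean for 381 (55.1%) and the IBA mean for 369 (53.3%). Among the 718 lower ones the HIB mean lay nearer POST for 379 (52.8%), the PRE mean for 398 (55.4%) and the IBA mean for 298 (41.5%). Over all tested identifiers with a higher POST than SA mean the shares were 56.2% for HIB, 53.2% for PRE and 50.4% for IBA, and with a lower POST mean 54.4%, 51.7% and 46.4%. The HIB share of the higher identifiers was thus the one farthest from its background. It ran from 60.5% (without POST replicate 3) to 82.3% (without SA replicate 1) when single libraries were left out. The background also holds identifiers whose POST and SA means hardly differ. The choice by POST against SA can therefore move such shares by itself, and its part was not tested.

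On the way from the SA mean (0%) to the POST mean (100%), the median higher identifier stood at 53.6% in PRE, 69.7% in HIB and 53.6% in IBA. The median lower identifier stood at 54.0% in PRE, 51.7% in HIB and 44.1% in IBA. The spread was wide. In HIB the quartiles were 48.5% and 91.0% of the way for the higher identifiers and 30.7% and 74.9% for the lower ones.

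All 3 earlier states lay nearer POST for 278 of the 1410 called identifiers (19.7%), and none did for 175 (12.4%). The same patterns were found for 19.8% and 16.3% of all tested identifiers, but the directions differed. All 3 states lay nearer POST for 24.9% of the higher identifiers, against 21.4% of all tested with a higher POST mean, and for 14.8% of the lower ones, against 18.2% of all tested with a lower POST mean. None did for 10.3% of the higher identifiers, against 16.3%, and for 14.5% of the lower ones, against 16.3%. The largest excesses over the background were among the higher identifiers, where PRE and HIB but not IBA lay nearer POST for 17.2%, against 10.5% of all tested, and HIB and IBA but not PRE for 19.9%, against 14.9%. The called identifiers were chosen by their POST against SA difference, which alone can change these shares, so the excesses are given as values only. Without SA replicate 2 the shares of all 3 and of none were 31.7% and 8.01%, and without POST replicate 3 that of none was 20.5%.

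**Figure D3:**
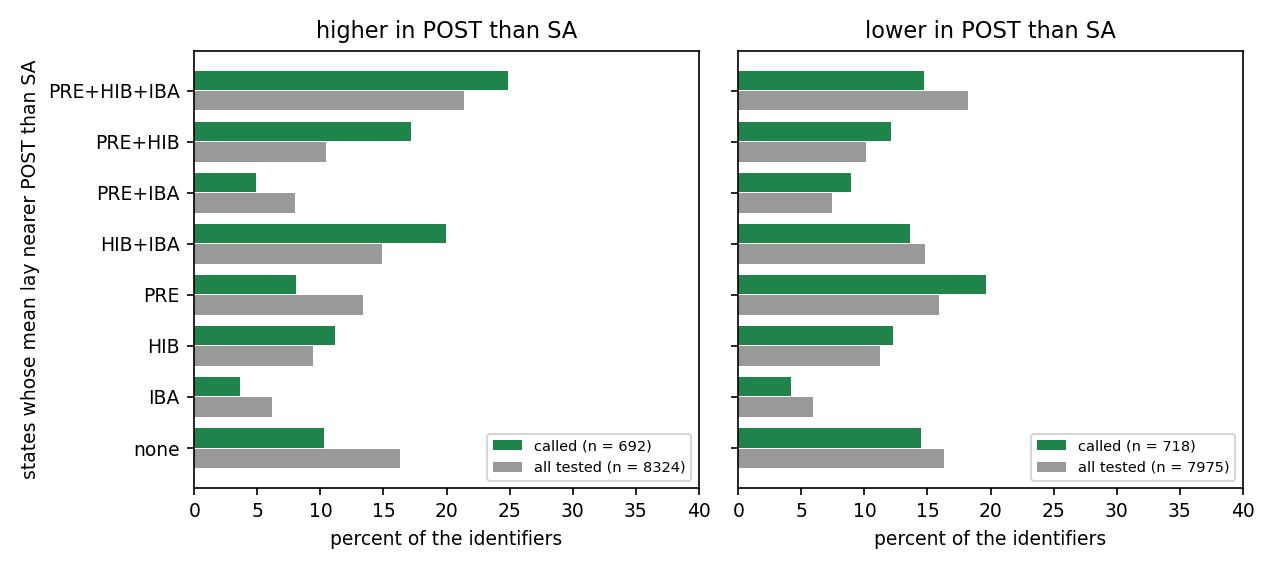
Percent of identifiers by the set of earlier states whose mean log2 CPM lay nearer POST than SA, for identifiers higher (left) and lower (right) in POST, called (green) or all tested (grey). For the higher ones all 3 states lay nearer POST in 24.9% of the called and 21.4% of all tested identifiers, and for the lower ones in 14.8% and 18.2%.

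Steps between the states were also counted, in an order set for this count. Arousals come between torpor bouts and the labels give no date, so IBA is not known to follow HIB. Taking the states in the order SA, PRE, HIB, IBA and POST, the largest step in the direction of the POST difference was from SA to PRE for 297 of the 692 higher identifiers (42.9%) and from IBA to POST for 250 (36.1%). For the 718 lower ones these steps were largest for 310 (43.2%) and 289 (40.3%). The step from PRE into HIB was largest for 127 higher and 103 lower identifiers, and that from HIB to IBA for 18 and 16. These are 18.4% and 14.3% for the step into HIB, against 24.3% and 26.8% over all tested, and 2.6% and 2.23% for the step to IBA, against 14.96% and 12.7%. Over all tested identifiers the step from SA to PRE was largest for 31.2% of those with a higher POST mean and 29.3% of those with a lower one, and the step from IBA to POST for 29.5% and 31.2%. The first and the last step hold the SA and the POST libraries that chose the identifiers, so nothing is read from larger shares there, or smaller ones in the middle steps, than over all tested.

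Some identifiers set 1 end of the year apart from all other libraries. The POST libraries lay above all 12 other EDL libraries for 88 of the 692 higher identifiers (12.7%) and below all 12 for 137 of the 718 lower ones (19.1%). Over all tested identifiers the shares were 1.01% and 1.26%, and the contrast that chose the called ones holds 3 of the 12 libraries, so nothing is read from the excess. The SA libraries lay below all 12 others for 219 of the higher identifiers (31.6%) and above all 12 for 121 of the lower ones (16.9%), against 2.0% and 1.25% of all tested. Among the higher identifiers SA stood alone for 219 and POST for 88, against 326 and 165 over all tested. Among the lower ones SA stood alone for 121 and POST for 137, against 204 and 205 over all tested. Both SA and POST are in the contrast that chose the called identifiers, so these counts are given as values only.

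The differences called in hibernation were followed into POST, with the limit that POST against HIB called 35 identifiers in all and 1 to 124 when single libraries were left out. Of the 418 identifiers called higher in HIB than SA, 214 were called higher in POST too and 0 lower, and the median log2 fold change was 1.26 in HIB against SA and 0.90 in POST against SA. A lower level in POST than HIB was called for 4 of them, while 0.117% of all tested identifiers were called lower, and none of these 4 was called between POST and SA. Of the 362 called lower in HIB, 134 were called lower in POST and 0 higher, with medians of -1.07 in HIB and -0.69 in POST against SA. A higher level in POST than HIB was called for 9 of them, while 0.0982% of all tested were called higher, and none of these 9 was called between POST and SA. The HIB libraries are in both comparisons, so nothing is read from these shares, and for the other identifiers neither a return nor its absence was shown. The HIB against SA calls chose the 418 and the 362, so nothing is read from the smaller size of their POST medians either.

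The 4 identifiers described by number have the largest log2 fold change in their class and direction. They were taken from the 170 called identifiers whose average over the 6 libraries was 5 CPM or more, whose POST and SA values did not overlap, and which were called whichever of the 6 libraries was left out. As no identifier was placed as present only after hibernation, the second of each pair comes from those called in no earlier state.

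Identifier 101960064 was high in POST and in hibernation. It stood at 67.9, 32.7 and 23.2 CPM in POST replicates 1, 2 and 3, against 1.74, 2.19 and 3.29 CPM in SA replicates 1, 2 and 3. Every POST library was above every SA library, and the log2 fold change was 4.10 ± 0.74 (SE, edgeR adjusted p = 0.0093). Its 3 HIB libraries held 19.6, 29.7 and 35.5 CPM, all above SA as well (log2 fold change 3.55 ± 0.72, edgeR adjusted p = 0.0209). In PRE it stood at 4.24, 26.5 and 6.24 CPM and in IBA at 7.21, 13.9 and 35.9 CPM. All of these were above SA, 1 library in each was far above the other 2, and neither state passed (edgeR adjusted p = 0.151 and 0.108). In SOL its POST mean was 3.91 ± 4.57 CPM and its SA mean 3.48 ± 1.11 CPM (SD, n = 3 each). The difference between the muscles' fold changes was 3.86 ± 1.25 on the log2 scale and did not pass (edgeR adjusted p = 1).

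Identifier 101958787 was low in POST and in each state but summer. It stood at 2.68, 1.32 and 1.97 CPM in POST replicates 1, 2 and 3, against 4.32, 22.8 and 46.9 CPM in SA replicates 1, 2 and 3. The groups did not overlap, and SA replicate 1 was close to the POST libraries while SA replicate 3 was far above the others. The log2 fold change was -3.63 ± 0.66 (SE, edgeR adjusted p = 0.0093). It was -2.76 without SA replicate 3, and with the spread from the 6 compared libraries alone the call was lost (edgeR adjusted p = 0.0519). PRE held 1.18, 2.65 and 1.05 CPM, HIB 3.86, 1.74 and 3.59 CPM, and IBA 3.69, 3.10 and 3.28 CPM. All 12 libraries outside SA were below all 3 SA libraries. Against SA the log2 fold change was -3.91 in PRE (edgeR adjusted p = 0.0722), -3.01 in HIB (edgeR adjusted p = 0.0235) and -2.88 in IBA (edgeR adjusted p = 0.0828). In SOL it stood at 0.761, 0.476 and 1.51 CPM in POST and at 2.22, 2.42 and 4.88 CPM in SA, a log2 fold change of -1.77 ± 0.53 that did not pass (edgeR adjusted p = 0.0924).

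Identifier 101960294 was higher in POST than in any other state. It stood at 47.9, 52.9 and 119 CPM in POST replicates 1, 2 and 3, against 12.1, 11.1 and 18.8 CPM in SA replicates 1, 2 and 3. All 3 POST libraries were above all 12 other EDL libraries, and replicate 3 was far above the other 2. The log2 fold change over SA was 2.39 ± 0.40 (SE, edgeR adjusted p = 0.00723), and it was 1.85 without POST replicate 3. In PRE it stood at 11.4, 24.3 and 23.8 CPM, in HIB at 39.6, 22.3 and 36.9 CPM and in IBA at 22.7, 17.96 and 30.7 CPM. HIB stood between SA and POST without passing against SA (1.24 ± 0.38, edgeR adjusted p = 0.0784). POST itself stood 1.89 ± 0.39 over PRE (edgeR adjusted p = 0.116), 1.15 ± 0.38 over HIB (edgeR adjusted p = 0.151) and 1.63 ± 0.38 over IBA (edgeR adjusted p = 0.132), so its difference from these states did not pass. In SOL it stood at 155.8, 97.5 and 16.5 CPM in POST and at 33.0, 6.45 and 4.27 CPM in SA, where POST replicate 3 lay within the SA range.

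Identifier 101959457 was lowest in POST, with little spread there. It stood at 20.6, 19.8 and 20.7 CPM in POST replicates 1, 2 and 3, against 94.3, 38.8 and 61.8 CPM in SA replicates 1, 2 and 3. The POST libraries lay below all 12 other EDL libraries, and the log2 fold change was -1.67 ± 0.28 (SE, edgeR adjusted p = 0.00729). In PRE it stood at 33.2, 32.9 and 43.5 CPM, in HIB at 34.8, 33.3 and 29.1 CPM and in IBA at 39.2, 21.5 and 39.5 CPM. These states had similar levels between SA and POST, with 1 PRE and 2 IBA libraries above SA replicate 2. Against SA none of them passed (edgeR adjusted p = 0.192 in PRE, 0.0530 in HIB and 0.159 in IBA), and neither did POST against PRE, HIB or IBA (edgeR adjusted p = 0.262, 0.241 and 0.239). In SOL its mean was 35.9 ± 17.7 CPM in POST and 75.1 ± 27.4 CPM in SA (SD, n = 3 each). That difference, -1.06 ± 0.34 on the log2 scale, did not pass (edgeR adjusted p = 0.107).

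**Figure D4:**
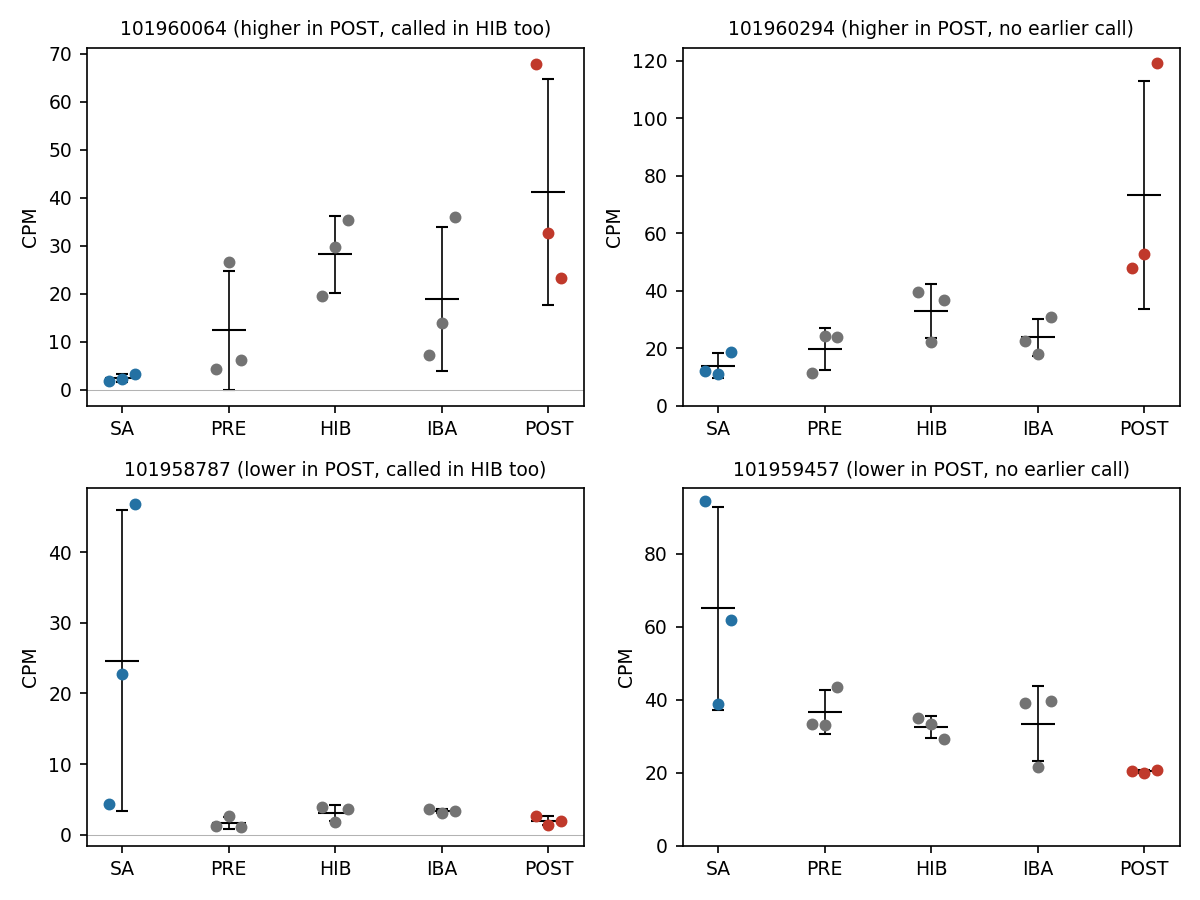
CPM of the 4 identifiers in each EDL library by state, with replicates 1 to 3 from left to right, the mean (bar) and SD (error bar, n = 3). POST is red and SA blue: for 101960064 and 101958787 the HIB libraries lie on the POST side of SA, and for 101960294 and 101959457 the POST libraries lie beyond those of all other states.

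Identifiers with a text prefix differed almost only upwards. The files do not say what the prefix stands for. Of 886 such identifiers tested, 69 were higher in POST (7.79%) and 4 were lower (0.451%), while of 15413 plain numbers 623 were higher (4.04%) and 714 were lower (4.63%). This was looked at after the calls had been seen. The prefixed identifiers were counted less, at a median of 1.48 CPM against 12.3 CPM for plain numbers, so the 4 groups of mean CPM were set side by side. In the lowest group 34 of 528 prefixed identifiers were higher and 0 lower, against 64 higher and 47 lower of 3547 plain numbers. In the second group 27 of 263 were higher and 4 lower, against 129 higher and 163 lower of 3812 plain numbers.

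By their median level the prefixed identifiers were lowest in SA. Their median log2 CPM was 0.77, 0.56 and 0.70 in POST replicates 1, 2 and 3, against 0.01, 0.31 and 0.03 in SA replicates 1, 2 and 3. In the 9 PRE, HIB and IBA libraries it lay between 0.43 and 0.61, above all SA libraries. The median log2 fold change over SA was 0.27 (PRE), 0.27 (HIB), 0.32 (IBA) and 0.39 (POST), against -0.00 to 0.00 for plain numbers. In HIB against SA 63 prefixed identifiers were called higher (7.11%) and 14 lower (1.58%), against 2.30% and 2.26% of plain numbers. Their share of all counts was 0.548% ± 0.0322 in POST and 0.472% ± 0.0150 in SA (SD, n = 3 each), and the 3 POST libraries lay above the 3 SA libraries (two-sided exact permutation p = 0.1, the smallest that 3 against 3 can give). By this share PRE replicate 2, at 0.4852%, lay just below SA replicate 3, at 0.4856%. The other PRE, HIB and IBA libraries lay above all SA libraries. The number called in POST against SA was 73. It was 43 if POST replicate 1 was left out and 35 if POST replicate 3 was, with 41 and 35 of these higher in POST. It was 15 if SA replicate 1 was left out and 11 if SA replicate 3 was, and all of these were higher in POST.

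**Figure D5:**
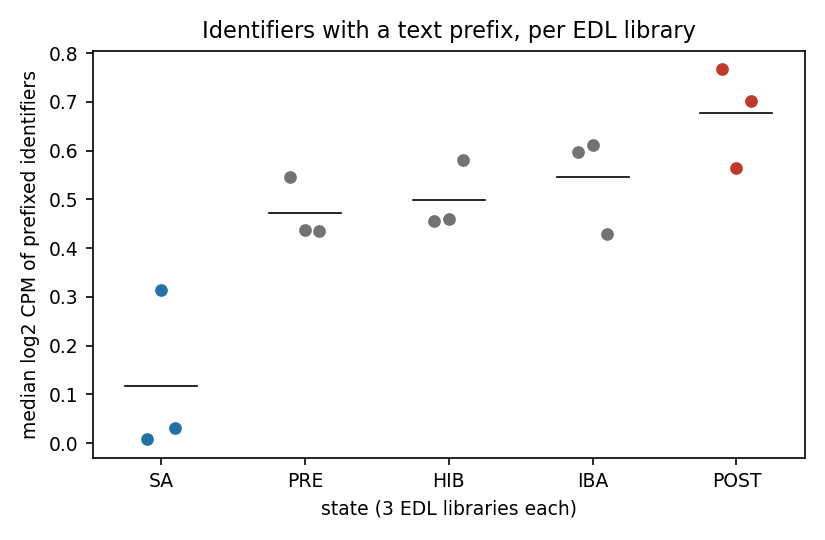
Median log2 CPM (prior count of 2) of the 886 tested identifiers with a text prefix in each EDL library, with replicates 1 to 3 from left to right and a bar for the mean of 3. The SA libraries (blue) lie between 0.01 and 0.31, below all others, and the POST libraries (red) between 0.56 and 0.77.

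The same identifiers were then read in the SOL libraries. The labels do not say whether SOL and EDL libraries come from the same animals, so SOL is not counted as an independent sample. Of the 692 identifiers higher in POST EDL, 685 were tested in SOL, and their median log2 fold change over SA SOL was 0.49 (PRE), 0.56 (HIB), 0.48 (IBA) and 0.65 (POST). Of the 718 lower ones 717 were tested, with medians of -0.67 (PRE), -0.64 (HIB), -0.50 (IBA) and -0.71 (POST). All medians over the 16443 identifiers tested in SOL lay between -0.02 and 0.02. In POST against SA in SOL itself, 45 of the 685 and 40 of the 717 were called in the same direction. The share called over all identifiers tested in SOL is not given here, so nothing more is read from these counts. With POST SOL replicate 1 left out, a setting added after seeing the data, the POST medians were 0.50 and -0.53, and the counts were 2 and 4. A difference between the muscles in POST against SA was called for 0 of 16946 identifiers in edgeR (0%) and for 0 in DESeq2, which gave 612 and 681 unadjusted p-values under 0.05. With same-numbered EDL and SOL libraries of a state taken as pairs, edgeR called 0 as well and gave 1507, and the labels do not say whether they are pairs. For 80.7% of the 1410 identifiers the EDL difference went farther in its direction than the SOL difference. The EDL calls chose these identifiers, so nothing is read from that share. The lack of calls between the muscles does not show that the difference is the same in both.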

How the data were processed

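RNA sequencing of 30 skeletal muscle libraries was deposited as raw counts per identifier and library. The submitters' processing notes name HISAT2 2.0.4 and HTSeq 0.9.1. The sources used here give no genome build, annotation or strand setting, so counts of near-identical, overlapping or antisense genes are uncertain. Groups and replicate numbers come from the titles.

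The 15 EDL libraries entered 1 fit in R 4.3.3 with edgeR 4.0.16 (filterByExpr with a minimum count of 10, TMM, quasi-likelihood F test, Benjamini-Hochberg adjustment, threshold 0.05). Standard errors were obtained from each log2 fold change and the root of its F statistic. CPM (counts scaled to a common library size after TMM) give the levels, and log2 CPM has a prior count of 2. The test was tried on simulated counts with known changes. DESeq2 1.42.0 was an alternative. At this depth precision is set mainly by how far replicates differ, and at low counts by counting error as well.

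Replicate pairs had a chi-square of 61.9 to 277 times its degrees of freedom, so none was a duplicate. The identifiers given by number were chosen by class, level of at least 5 CPM, lack of overlap and calls without any single library. Gene lists had been written by symbol, but no table used here pairs symbols with identifiers, so they were not run. Classes, lists and rules were chosen with earlier results of these data known. The reading by nearer mean, the steps, and the counts of prefixed identifiers and of groups beyond all others were added after seeing the data.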

Additional observations from a re-analysis of the deposited data

How the results depend on the processing

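Leaving out each EDL library gave counts of 239 to 1443 for POST against SA, 0 to 58 for PRE against SA, 89 to 884 for HIB against SA, 0 to 30 for IBA against SA, 1 to 13 for POST against PRE, 1 to 124 for POST against HIB, 0 to 3 for POST against IBA, 38 to 345 for differences already present, 0 to 3 for those seen only after hibernation, 52 to 451 for all 3 earlier states nearer POST and 28 to 186 for none. Such fits also have fewer samples, and its part in the fall was not tested. DESeq2's Wald test gave 2408, 539, 1727, 454, 265, 780, 516, 1050, 17, 483 and 310 for the same quantities. With only the 6 compared libraries the counts were 283 for POST against SA, 265 for HIB against SA, 0 for IBA against SA, 0 for POST against PRE and 2 for POST against HIB. Without a filter PRE against SA gave 11, POST against PRE 18 and POST against HIB 55. With all 30 libraries PRE against SA gave 3 and IBA against SA 57. DESeq2's size factors gave 10 for POST against HIB. The replicate number as a block gave 1081 for POST against SA, 0 for IBA against SA, 2 for POST against PRE and 3 for POST against HIB. Same-numbered EDL libraries of different states had deviations that correlated at a median of -0.02 (from -0.18 to 0.14). For libraries with different numbers the median was 0.01. No sign of pairing by number was thus seen, which does not exclude it. The cause of these moves was not tested. None of the 1410 differences had the opposite sign in a setting that tested it. The settings reuse the POST and SA libraries that chose the 1410, so nothing is read from this. The 4 identifiers given by number kept their calls in all settings but 1, which is given with 101958787. These identifiers were chosen for keeping the call without any single 1 of the 6 compared libraries, so nothing is read from those fits. In the 15 fits without 1 library their log2 fold changes ran from 3.52 to 4.39 (101960064), -4.12 to -2.76 (101958787), 1.85 to 2.66 (101960294) and -1.94 to -1.30 (101959457).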
